A study of Drosophila melanogaster with 24 samples.

Results

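The genes described here encode the subunits of the Drosophila proteasome. They were chosen by name: every probe set annotated to a single gene whose symbol begins with Prosalpha, Prosbeta, Rpn or Rpt and a digit. The rule found 40 probe sets, 1 for each of 40 genes, among the 18769 probe sets on the array, of which 13647 name 1 gene. A probe set is a group of short oligonucleotides that together measure the transcript of a gene. By symbol, 26 of the 40 are general subunits, 12 are paralogs (symbols ending in R, R1, R2, T1 or T2), and 2 further Prosalpha genes end in T alone. These last, Prosalpha3T and Prosalpha6T, are called T genes here. They are a class of their own, and many counts below take them together with the paralogs. The RefSeq annotation holds 48 genes with such symbols. Of the other 8, Prosbeta1, Rpn9, Rpn10, Rpt1, Rpt6 and Rpt6R were not analysed here because no probe set names them alone, and Prosalpha1 and Prosalpha1R share 1 probe set, which was left out.

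Transcript abundance was measured in whole virgin Drosophila melanogaster from 6 lines. H1 and H2 had been selected for high aggression of males, L1 and L2 for low aggression, and C1 and C2 were kept as unselected controls, all drawn from a common base population. Each of the 24 samples pooled 12 flies of a line and sex, aged 3 to 7 days and deprived of food for 90 min, with 2 samples per line and sex and 1 array per sample. The article dates the flies to generation 25, the series description to generation 28. No source used here says whether the 2 samples of a line and sex came from separate cultures, so p-values over arrays measure the spread between these samples, and a selection group is represented by only 2 lines.

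The proteasome degrades proteins that carry ubiquitin. Its barrel-shaped core particle is built of rings of alpha subunits, which form the gate, and rings of beta subunits, some of which hold the proteolytic sites. A regulatory particle on the end of the barrel recognizes and unfolds the substrate: the Rpt subunits are its ATPases, and the Rpn subunits are its scaffolds, ubiquitin receptors and deubiquitinating enzyme. Drosophila carries duplicated genes for several of these subunits, many known for expression in the male germ line, and Prosalpha6T is known to be needed for sperm development.

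The deposited values are Signals, intensities on a linear scale that combine the oligonucleotides of a probe set, scaled on each array. They were analysed as log2(Signal + 16), and a difference on this scale understates the change of a weakly measured gene. The median Signal of an array was 124.8 to 143.4 in males and 71.4 to 118.9 in females, although the authors' scaling left all arrays with nearly the same trimmed mean. Probe sets whose 12th-highest Signal reached 50 were tested, 11928 in all for 9913 genes, with p-values adjusted over all of them. The sexes matched their labels: all 17 ovary and female fat body markers tested were higher in females (median difference -8.07, males minus females, on the log2 scale), and all 13 accessory gland markers were male-higher (median 8.07). A female array stood apart. In C1 female replicate 1, accessory gland markers had a median of 3.98% of their male mean and testis and sperm markers 3.21%, against at most 0.544% and 0.716% on the other female arrays. Below, paralogs are therefore also given without this array and L1 female replicate 1, in which they were highest.

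The duplicated genes, Prosbeta4R2 apart, were well measured in males, and all were near the floor of the measurement in females. Of the 14 paralogs and T genes, 13 passed the filter on low values, 11 paralogs and both T genes, and all 13 were higher in males, where 31.6% of all genes were called higher in males. Since a gene measured only in males passes the filter through its male arrays alone, this count and the size of the differences describe these 13 genes and are not evidence about the class. In bulk samples of whole flies, fewer cells of a type cannot be told apart from less RNA per cell. On every female array, every paralog and T gene lay below that array's median Signal, 168 of 168 values, with a range of 1.2 to 87.7, and only 11 of the 168 values reached 50. On the male arrays 19 of 168 values lay below the array's median, all 12 of Prosbeta4R2, 5 of Prosbeta5R2 and 2 of Prosalpha4T1.

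**Figure D1:**
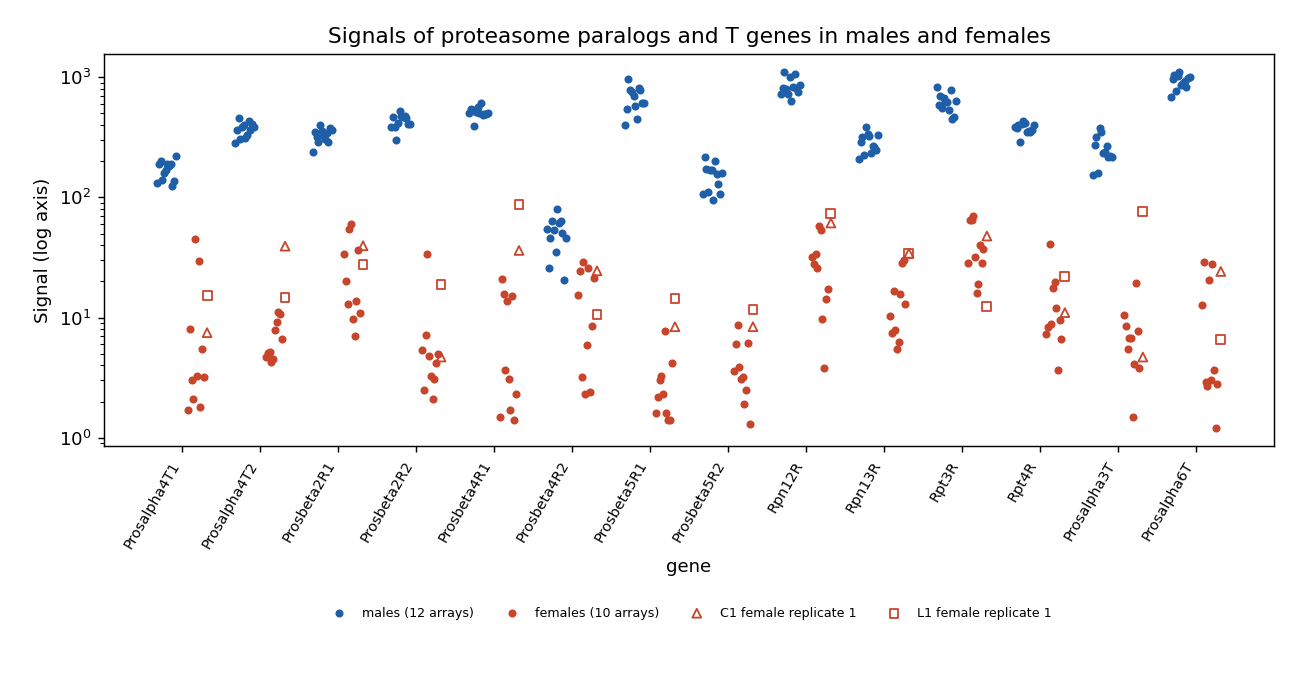
Signal on a logarithmic axis for each of the 12 paralogs and 2 T genes, with 12 male arrays in blue and 12 female arrays in red, 2 of them (C1 and L1 female replicate 1) as open symbols. Males and females did not overlap in any gene except Prosbeta4R2, where males reached down to 20.6 and females up to 29.0. All 12 male arrays lay above all 12 female arrays in 20.6% of all genes tested.

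Among the alpha subunits, Prosalpha6T (CG5648, on 2L) had the largest sex difference of the family at this offset. With a pseudocount of 1 Prosbeta5R1 was ahead of it (7.22 against 6.78), and the female Signals of both are near the floor. Its Signal in males was 683.5 at the lowest, 951.8 at the median and 1105.2 at the highest, and in females 1.2, 5.15 and 28.8. The log2 difference was 5.19 (SE 0.112, limma adjusted p = 5.46e-16). Its counterpart Prosalpha6, which sits in the ring of the core particle, went the other way, with 1041.7, 1567.05 and 1810.3 in males and 2139.4, 2616.7 and 2930.5 in females (log2 difference -0.73, SE 0.0684, limma adjusted p = 4.53e-08). Prosalpha6 and Prosalpha6T thus each separated the sexes without overlap, in opposite directions.

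Prosalpha4 has a pair of testis-named paralogs. Prosalpha4T1 (CG17268, 3R) ran from 124.7 through a median of 176.4 to 222.4 in males and from 1.7 through 4.4 to 45.2 in females. Prosalpha4T2 (CG4569, 2R) ran from 280.6 through 375.45 to 461.3 in males and from 4.3 through 7.3 to 39.3 in females. Both were above all females on every male array, by 2.91 (SE 0.169) and 3.92 (SE 0.126) on the log2 scale. Prosalpha4 itself ran from 1016.4 through 1235.45 to 1785.3 in males and from 1844.7 through 2277.7 to 2750.8 in females, a log2 difference of -0.79 (SE 0.0454, limma adjusted p = 8.43e-11) that was the second in size among the general subunits. Prosalpha3T (CG1736, 3R) had Signals of 154.4, 236.45 and 374.1 in males and of 1.5, 6.8 and 76.5 in females. Its difference of 3.34 carried the largest standard error of the family (0.211), and its highest female value came from L1 female replicate 1. For Prosalpha3 the difference was -0.33 (SE 0.0455).

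Paralogs of 3 beta subunits were measured. Prosbeta5 carries the chymotrypsin-like activity of the core, and Prosbeta5R1 (CG9868, 2R) had Signals of 402.6, 655.3 and 973.4 in males against 1.4, 2.65 and 14.5 in females. Its log2 difference of 5.05 (SE 0.0757, limma adjusted p = 1.26e-17) had the smallest error of the 13. The other paralog of this subunit, Prosbeta5R2 (CG31742, 2L), had 95.6 to 214.9 in males with a median of 157.35, and 1.3 to 11.6 in females (difference 2.95, SE 0.0801). Prosbeta5 was higher in females, with 2999.7 to 4177.7 in males and 4086.4 to 5537.3 in females, and its ranges overlapped (difference -0.47, SE 0.0486, limma adjusted p = 1.81e-07).

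Prosbeta2 carries the trypsin-like activity. Its paralog Prosbeta2R1 (CG18341), on the X chromosome, had 240.3, 336.65 and 401.6 in males and 7.1, 24 and 60.4 in females (difference 3.10, SE 0.171). Prosbeta2R2 (CG12161, 3R) had 2.1, 4.75 and 33.6 in females and 302.2, 436.95 and 518.4 in males (difference 4.28, SE 0.133). For Prosbeta2 the difference was -0.48 (SE 0.0461), with every female above every male. Prosbeta4 is a structural subunit of the beta ring, and its paralogs Prosbeta4R1 (CG17301) and Prosbeta4R2 (CG17302) lie close together on 2L. Prosbeta4R1 had 391.5, 502.75 and 614.5 in males and 1.4, 8.7 and 87.7 in females (difference 4.24, SE 0.209), the last again on L1 female replicate 1. Prosbeta4R2 was the only member below the filter: its Signals were 20.6 to 79.6 in males (49.96 ± 16.71, mean ± SD, n = 12) and 2.3 to 29.0 in females (14.5 ± 10.18, n = 12), so that the sexes overlapped. It was not tested in the main fit. With no filter on low values all 12 paralogs, Prosbeta4R2 included, were called higher in males.

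In the regulatory particle, Rpt3R and Rpt4R are paralogs of ATPases. Rpt3R (CG9475, 3R) had 448.3, 615.9 and 825.3 in males and 12.4, 34.85 and 70.5 in females (difference 3.61, SE 0.12). Rpt4R (CG7257, 3L) had 287.0, 383.8 and 429.0 in males and 3.7, 10.25 and 41.2 in females (difference 3.77, SE 0.105). The ATPases Rpt3 and Rpt4 were higher in females, by -0.75 (SE 0.0443) and -0.67 (SE 0.0568), without overlap. Rpn13 is a ubiquitin receptor, and its X-linked paralog Rpn13R (CG6789) had 208.4, 276.7 and 386.1 in males and 5.5, 14.25 and 34.3 in females (difference 3.22, SE 0.17). Rpn12R (CG11552, 3L), the paralog of a lid subunit, had 638.4, 808.4 and 1105.2 in males and 3.8, 30.1 and 72.9 in females (difference 4.22, SE 0.133), on a probe set that can also match other transcripts. Rpn12 itself had the largest difference in the female direction of all general subunits, with 1437.8, 1668.3 and 1788.9 in males and 2559.8, 2878.2 and 3288.6 in females (difference -0.82, SE 0.0471, limma adjusted p = 8.18e-11).

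Every paralog and T gene tested thus differed from its general counterpart in the direction of the sex difference. As these genes passed the filter through their male arrays, this describes them and is not evidence about the class. The male minus female difference of the duplicate exceeded that of its counterpart by 3.42 (Prosbeta5R2) to 5.92 (Prosalpha6T) on the log2 scale. The range rests on the offset, with 4.31 (Prosbeta2R1) to 7.68 (Prosbeta5R1) at a pseudocount of 1 and 2.07 (Prosbeta5R2) to 4.43 (Prosalpha6T) at 64. Within single lines the excess ran from 2.61, for Prosbeta2R1, to 6.77, for Prosalpha6T. The 13 genes had a median sex difference of 3.77, and 13.5% of all genes had a difference at least as high as the lowest paralog. The genes are spread over the arms, with 12 of the 14 on autosomes, and Prosbeta2R1 and Rpn13R on X. Of the 26 general subunits, 3 are on X.

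The female values were not spread evenly over the arrays. L1 female replicate 1 held the highest female value in 5 of the 14 genes, H2 female replicate 1 in 3, C1 female replicates 1 and 2 in 2 each, and C2 and L2 female replicate 1 in 1 each. Expressed as a percentage of the male mean, the median over the genes was 8.07% in L1 female replicate 1 and 6.35% in C1 female replicate 1, against 1.8% to 3.52% in the other 10. The testis and sperm markers were at 3.21% in C1 female replicate 1 and at no more than 0.716% in any other female array, and the part of male tissue in these values was not tested. Low Signals were raised over the whole of L1 female replicate 1. Its median Signal was 118.9 and its lower quartile 28.1, against 71.4 to 88.4 and 10.6 to 16.8 on the other female arrays. The part of this in its values for the paralogs and T genes was not tested either. With both arrays left out, all 13 genes remained higher in males, their differences moved by -0.06 to 0.27, and the highest of the remaining female Signals was 70.5.

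The general subunits, in contrast, were abundant in both sexes and higher in females. Of 26 general subunits, all of which passed the filter, 23 were higher in females, 0 were higher in males and 3 did not pass the test, where 45.3% of all genes were called higher in females. The median log2 difference was -0.47, against -0.17 over all genes, and 22 of the 26 lay below the median of all genes. On a linear scale the female mean was 1.04 to 1.78 times the male mean. In 18 of the 26 every female array lay above every male array, which held for 31.7% of all genes.

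**Figure D2:**
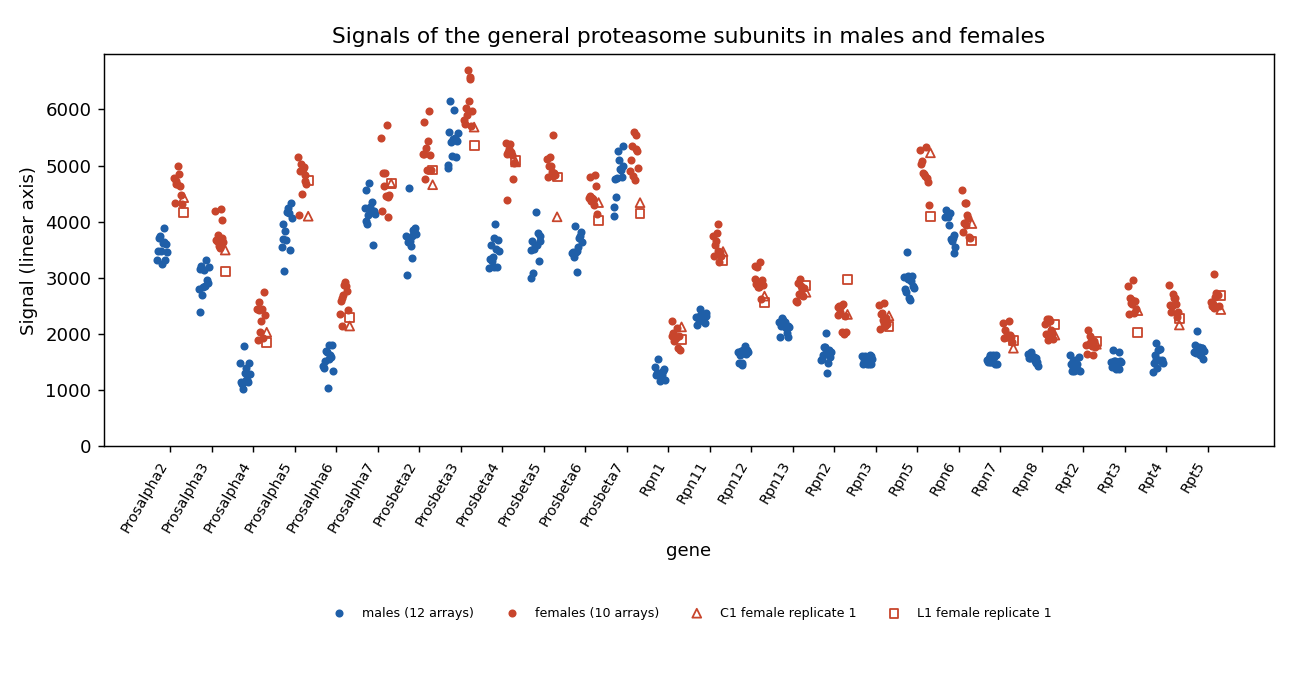
Signal on a linear axis for each of the 26 general subunits, with 12 male arrays in blue and 12 female arrays in red, 2 of them as open symbols. All values lie between 1016.4 and 6701.8, and females are above males without overlap in 18 genes.

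The parts of the complex did not differ by the same amount. Among the general subunits with a probe set of their own, all 4 Rpt ATPases were higher in females (median difference -0.64). So were 9 of the 10 such Rpn subunits (-0.55), all 6 alpha subunits (-0.35) and 4 of the 6 beta subunits (-0.39). These medians of 4 to 10 genes were not tested against each other. After Rpn12, Prosalpha4 and Rpt3, the largest difference was that of the lid subunit Rpn5, with 2612.7, 2893.2 and 3458.7 in males and 4095.9, 4861.0 and 5328.9 in females (difference -0.74, SE 0.0465, limma adjusted p = 3.03e-10). Rpn11, the deubiquitinating enzyme of the lid, had the least spread in males relative to its mean, 2163.7 to 2443.3, against 3277.6 to 3949.6 in females (difference -0.62, SE 0.0353). The scaffold subunits Rpn1 and Rpn2 had differences of -0.58 and -0.52.

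The subunits nearest to equal abundance came from different parts of the complex. Rpn6, a lid subunit that clamps the core to the regulatory particle, had 3436.9, 3849.5 and 4209.6 in males and 3654.2, 3972.3 and 4559.2 in females (difference -0.06, limma adjusted p = 0.333). The beta-ring subunits Prosbeta7 (-0.06, adjusted p = 0.342) and Prosbeta3 (-0.14, adjusted p = 0.0215) did not pass the limma test at 0.001 either. Males and females overlapped in all of them, and the probe sets of Rpn6 and Prosbeta7, like those of Prosbeta5, Rpn13 and Rpn12R, are of a type that can also match other transcripts. Prosalpha7 passed narrowly (-0.17, SE 0.0382, limma adjusted p = 0.000739) and lost its call in 28 of 43 alternative settings, 20 of them single arrays left out (adjusted p up to 0.00219). These 4 were also the general subunits above the median of all genes. With arrays scaled to a common median, which moved the median of all genes to -0.83, the general subunits had a median of -1.16 and all 26 were called higher in females, so whether those 3 subunits were called rests on the scaling.

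**Figure D3:**
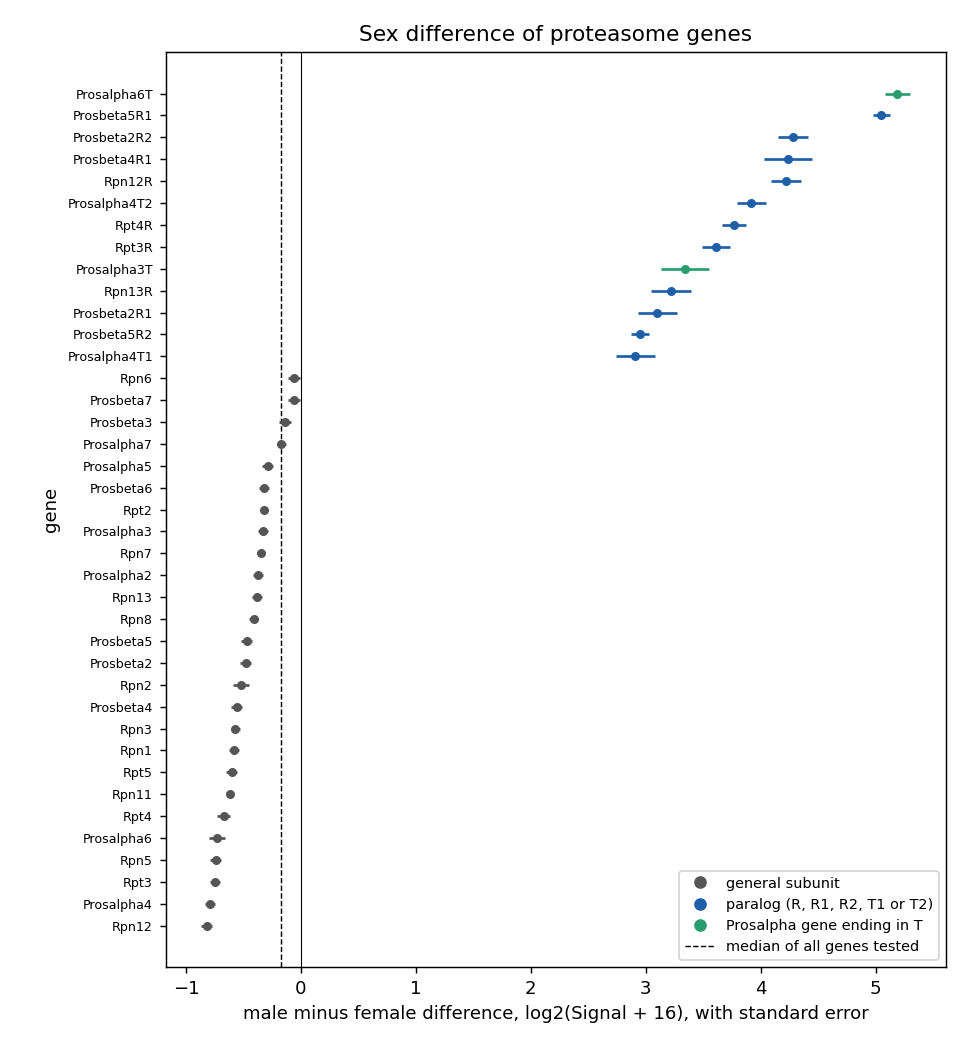
Male minus female difference in log2(Signal + 16) with its standard error for the 39 genes tested, general subunits in grey, paralogs in blue and T genes in green, with the median of all genes (-0.17) as a dashed line. General subunits lie between -0.82 and -0.06, and paralogs and T genes between 2.91 and 5.19.

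Genes that work with the proteasome were taken from a list of their own. Of 17 listed, 16 had a tested probe set, and 8 were higher in males, 5 were higher in females and 3 (maf-S, Pomp and TER94) did not pass the limma test, with 31.6% of all genes higher in males and 45.3% higher in females. The male-higher genes included klhl10, the substrate receptor of a ubiquitin ligase of the male germ line, with 312.2 to 597.7 in males and 1.0 to 19.9 in females (difference 4.44, SE 0.118). Its ligase partner Cul3 differed by 1.32 and the RING-type paralog Roc1b by 3.86, and nutcracker (ntc), an F-box protein of sperm individualization, by 2.51. The proteasome regulator PI31, known as a partner of nutcracker, ran from 1632.8 to 2075.7 in males and from 834.4 to 970 in females (difference 1.05, SE 0.0389). In the deubiquitinating enzyme Uch-L5 the general gene differed by 0.31 and its paralog Uch-L5R by 4.13. Among the female-higher genes were the proteasome activator REG (-1.29), the deubiquitinating enzyme Usp14 (-0.68) and Sem1 (-0.65), a small lid subunit. Also female-higher was cnc (-0.63), the homolog of vertebrate factors that activate proteasome genes. It was the 1 gene of the 16 called by line (limma adjusted p = 1.24e-05), where 6.48% of all genes were. Its mean Signal was 2353 in C2 and 2079 in L1 males against 667.3 to 1159 in males of the other lines, and 4346 in C2, 2797 in L1 and 2512 in H2 females against 942.6 to 1074 in the others, so that high and low lines occurred in the same selection group.

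The lines were compared next. A gene was called by line at an adjusted p under 0.001, as 6.48% of all genes were, and none of the 39 was called by limma, against 8 at an unadjusted p under 0.05 (42% of all genes) and 1 (Prosalpha4) by the ordinary model on the Signal itself (6.51% of all genes). No member was called for the interaction of line and sex either, as 0.0202% of all genes were, and the lowest limma adjusted p was 0.0598, in Prosbeta5R1, with 6 members at an unadjusted p under 0.05 (12.7% of all genes). The line means of a general subunit differed by at most 1.52 times in males and 1.39 times in females, both in Prosalpha4. In the 13 paralogs and T genes the highest line mean in males was 1.24 to 2.04 times the lowest. The corresponding ratios in females, where Signals were near the floor, reached 28.4 and were not read as differences.

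Prosalpha4 was the general subunit nearest to the threshold (limma adjusted p = 0.00201 for line). Its Signals in the males of L2 were 1785.3 and 1487.7 and in C1 1478.7 and 1389.7. The lowest pairs were those of C2, 1016.4 and 1144.7, of H1, 1101.6 and 1181.3, and of L1, 1146.5 and 1178.8. In females L2 was again highest, at 2572.9 and 2750.8, and C2 lowest by its mean, at 1890.7 and 1929.4. The line that stood at the top was thus an L line and the line at the bottom a C line in both sexes, while the other L line was near the bottom in males. The adjusted p within males was 0.0112 and within females 0.032, at a threshold of 0.05 that 15.1% and 16.1% of all genes passed. Prosalpha7 followed with an adjusted p of 0.0226 in the limma fit over both sexes, and these 2 were the members under 0.05 for line, where 28.4% of all genes were.

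The paralogs of the chymotrypsin-like subunit varied among males. Prosbeta5R1 was highest in H1 males, 973.4 and 814.1, and in C2 males, 781.8 and 780.5. It was lowest in C1 males, 402.6 and 574.7, and in L1 males, 547.9 and 447.6 (limma adjusted p within males 0.0189). High and low lines therefore came from different selection groups. Prosbeta5R2 had another order, with L1 males highest at 214.9 and 200.5 and C1 males lowest at 107.5 and 95.6 (limma adjusted p within males 0.0321). The 3 members past 0.05 within males were these paralogs and Prosalpha4. Within females 4 members passed 0.05 (Prosalpha4, Rpn12R, Rpt3R and Prosalpha6T), the last 3 with no female Signal above 72.9.

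**Figure D4:**
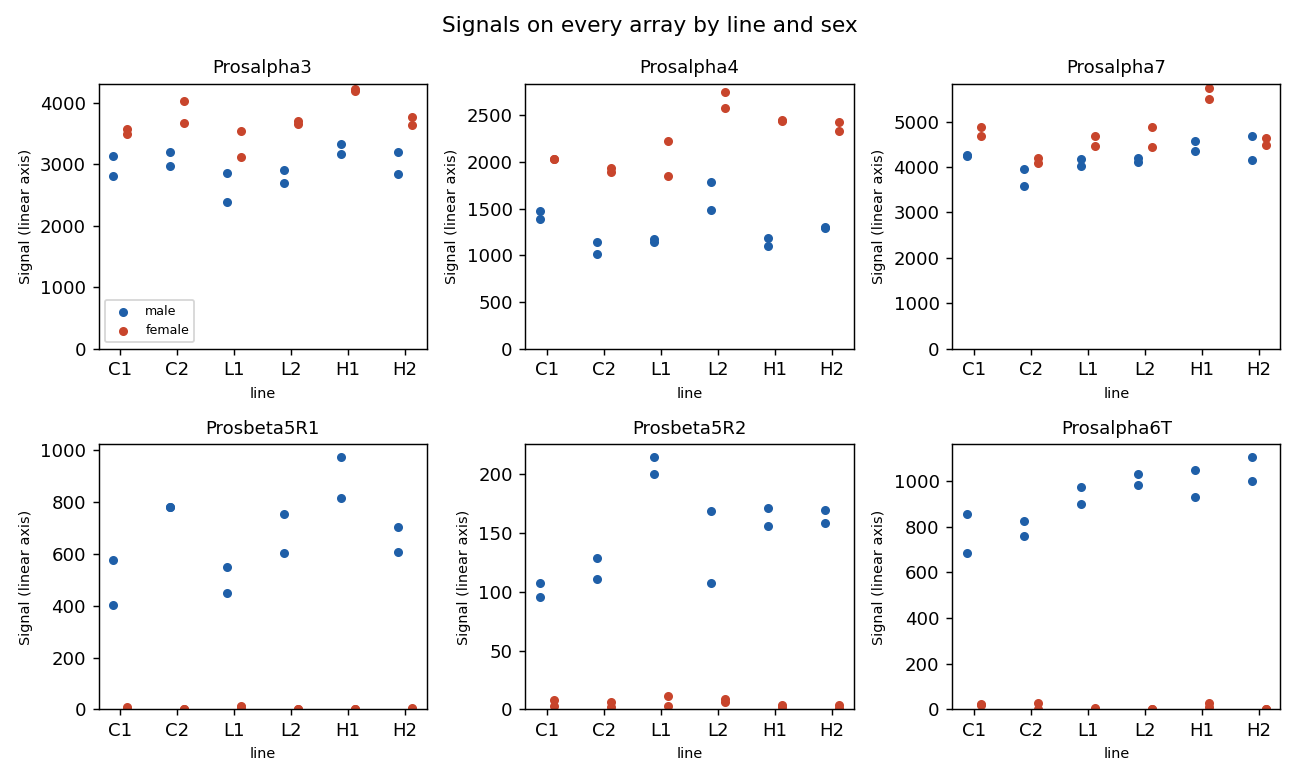
Signals on a linear axis on each of the 24 arrays for 6 genes by line, males in blue and females in red, 2 arrays per line and sex. Prosalpha4 was highest in L2 in both sexes, and Prosbeta5R2 in males lay at 95.6 to 128.6 in the C lines and at 107.2 to 214.9 in the other lines.

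The selection groups were then compared, each as the average of its 2 lines. For a call, the contrast had to reach an adjusted p under 0.05, and each line of one group had to lie on the same side of each line of the other group in all 4 combinations. Between H and L this held for 7.65% of all genes and for 1 of the 39 members, Prosalpha3, an alpha-ring subunit. Its Signals were 3162.3, 3322.0, 2844.6 and 3194.3 in H males and 2394.6, 2857.0, 2693.3 and 2912.9 in L males. In H females they were 4186.8, 4220.9, 3762.4 and 3633.8 and in L females 3113.6, 3538.7, 3649.0 and 3711.6. The arrays overlapped in both sexes although the line means did not (difference 0.19, SE 0.0558, limma adjusted p = 0.0425). The call was lost in 26 of 43 alternative settings, 17 of them single arrays left out (adjusted p up to 0.107). Without line H1 the difference was 0.12 and without L1 0.13 (limma adjusted p = 0.443 and 0.259).

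Between L and C, where 5.54% of all genes were called, 1 member was called, Prosbeta5R2 (difference 0.35, SE 0.0981, limma adjusted p = 0.0414). Between H and C, where 8.68% of all genes were called, there were 0 by limma, with 4 at an unadjusted p under 0.05 (24.4% of all genes) and 6 called by the ordinary model on the Signal itself (14.5% of all genes). Within males Prosbeta5R2 was called in both contrasts with C, at 0.54 for L (SE 0.139, limma adjusted p = 0.0444) and 0.51 for H (SE 0.139, limma adjusted p = 0.0411), which share the C arrays and where 2.44% and 5.45% of all genes were called. Its Signals were 107.5, 95.6, 111.3 and 128.6 in C males, 171.2, 155.7, 170.1 and 159.0 in H males and 214.9, 200.5, 169.3 and 107.2 in L males. H and C males did not overlap, and L2 male replicate 2 lay within the C range. The contrast of L with C over both sexes lost its call in 30 of 42 settings, 18 of them single arrays left out, and without line L1 it was 0.21 (limma adjusted p = 0.316). Within males the call was lost without single arrays in 19 (L) and 14 (H) of 24 cases, and without line L1 the contrast of L with C was 0.26 (limma adjusted p = 0.474).

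In females, Prosalpha6T was called lower in L than in C (difference -0.81, SE 0.193, limma adjusted p = 0.0289, with 2.94% of all genes called). Its Signals were 24.2, 20.7, 28.8 and 3.7 in C females and 6.6, 3.0, 2.9 and 1.2 in L females, all far below the median of their arrays and overlapping. The difference depended on the offset, at -2.05 with a pseudocount of 1 and -0.30 with 64 (limma adjusted p = 0.108), and on C2 female replicates 1 and 2, at -0.51 without the former (call lost) and -1.10 without the latter. The call was lost without any of 6 arrays or without line C1 (-0.62, limma adjusted p = 0.201), H2, L1 or L2. The difference between the sexes in this contrast was 1.12 (limma adjusted p = 0.176). In none of the contrasts did a member differ between the sexes, where 0.161% (H and L), 0.454% (H and C) and 0.0908% (L and C) of all genes did (3, 6 and 1 members at an unadjusted p under 0.05, as were 9.58%, 12.7% and 8.19% of all genes). The remaining contrasts within a sex called 0 members, against 3.62% of all genes for H and L in males, 4.7% for H and L in females and 3.36% for H and C in females (5, 6 and 5 members at an unadjusted p under 0.05, as were 16.3%, 20.4% and 18.4% of all genes). With the line as the replicate, no member and no gene at all was called in any contrast by limma on the 6 line means. At an unadjusted p under 0.05 there were 0, 0 and 2 members, and 5.24% (H and L), 4.91% (H and C) and 4.47% (L and C) of all genes.

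In males the 13 paralogs and T genes lay on the same side in H and C. Every one had a higher mean in H than in C males, by 0.14 to 0.55 on the log2 scale with a median of 0.31, while 43.1% of all genes were higher in H males and their median was -0.04. In 10 of the 13 both H lines lay above both C lines, as they did in 1859 of the 9913 genes. Leaving out any 1 of the 8 male C and H arrays kept all 13 higher in H with medians of 0.27 to 0.43, and leaving out a line kept 11 to 13 (11 without C2, 12 without C1). The median deviation of the 13 genes from the mean of the male arrays differed between the replicates. In replicate 1 it was -0.36 in C1, -0.27 in C2, 0.19 in H1 and 0.19 in H2. In replicate 2 it was smaller, at -0.01, -0.11, 0.11 and 0.07 in the same order. Leaving out single arrays does not separate the replicates. The line with the lowest male mean was C1 in 6 and C2 in 7 of the 13, and C1 or C2 was lowest in 33.7% of all genes. Only Prosbeta5R2 passed the test for H and C. All 13 genes were read on the same male arrays, so that a single sample can move them together, and no test of the group was made.

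**Figure D5:**
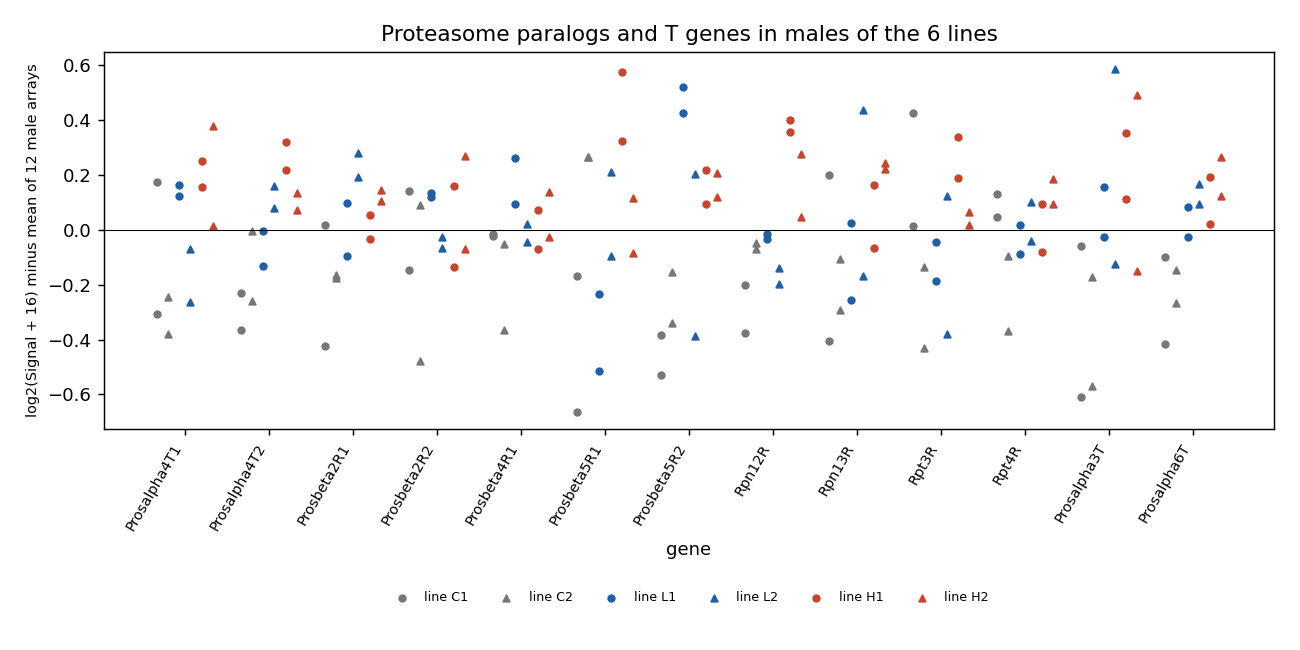
Deviation of each male array from the mean of the 12 male arrays in log2(Signal + 16) for the 13 paralogs and T genes tested, C lines in grey, L lines in blue and H lines in red, with circles for the lines numbered 1 and triangles for those numbered 2. Of 52 values each, 41 lie below 0 in the C arrays, 9 in the H arrays and 26 in the L arrays. The values of a group come from 13 genes read on the same 4 arrays, so they are not independent replicates.

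L males differed less from C males, by a median of 0.18, with 11 of the 13 higher in L, where 47.2% of all genes were higher in L. The median deviations in L1 and L2 males were 0.09 and 0.12 in replicate 1. In replicate 2 they were -0.03 and -0.09, against -0.01 and -0.11 in C1 and C2. The comparisons of H and of L with C share the same 4 C arrays. Between H and L males the median was 0.08, with 10 of 13 higher in H. The general subunits stood at -0.02 for H and C males, with 11 of 26 higher in H. Of the testis and sperm markers, none of which was called in these contrasts in males, 13 of 18 were higher in H than in C males with a median of 0.20, 15 of 18 were higher in L with a median of 0.18, and 14 of 18 were lowest in C1 or C2. The summed level of these markers over the male arrays ran from 73200 to 101900, and over the female arrays from 9398 to 14890, which includes CycB, the 1 marker higher in females, at a mean of 10530. Accessory gland markers had medians of 0.07 (H and C) and -0.04 (L and C), with 5 of 13 lowest in C1 or C2. The part of a different amount of testis in the values of the paralogs was not tested. In females, at Signals near the floor, the paralogs and T genes had a median of -0.25 for H and C, with 1 of 13 higher in H (49.8% of all genes). Testis and sperm markers had a median of -0.67 there, with 2 of 18 higher in H, and accessory gland markers one of -0.81, with 1 of 13 higher. Without C1 female replicate 1 these medians were -0.14 for the paralogs and T genes (3 of 13 higher), -0.07 for the testis markers and 0.03 for the accessory gland markers.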

How the data were processed

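RNA of 24 samples of whole flies was hybridized to Affymetrix Drosophila arrays. The authors computed the deposited values, an intensity (Signal) per probe set, with Affymetrix Microarray Suite (MAS5, per the submitters' processing notes). They used 14 pairs of matched and mismatched oligonucleotides and scaled each array. The article gives a median of 500 as the target of the scaling. In the deposited values, however, the trimmed mean was nearly the same on all arrays (497 to 498), and the medians differed. Detection calls were not used. Depth does not apply, and the number of arrays limits the precision.

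Samples were grouped by their labels. An H2 male label that carries both line numbers was read as H2. No pair of arrays was identical. Linear models were fitted to log2(Signal + 16) with limma 3.58.1 (R 4.3.3), with a term for every line within each sex, moderated variances and Benjamini-Hochberg adjustment over the 11928 probe sets whose 12th-highest Signal was at least 50. Thresholds were 0.001 for sex, line and their interaction and 0.05 for selection groups. Background percentages are over 9913 genes, each represented by its probe set with the highest mean. The fit was tested on simulated data with known shifts and independent noise on each array. The simulation held no spread between lines of a group and no floor, so it does not check those features.

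The members and gene lists were chosen with earlier results of these data known. Named were all paralogs and T genes with their counterparts, the general subunits with the largest sex differences, and every member called by line or group. Those nearest to equality, and other genes given as examples, were chosen after their values were seen. Names and chromosome arms come from RefSeq (Release 6 plus ISO1 MT assembly), which matched all 40 symbols. Replicate numbers were not treated as a pairing of samples in the main fit. Alternatives were other filters, pseudocounts, scalings, models, thresholds and classes, a label exchange, and leaving out each array and line. For the paralogs, the ranges without single arrays or lines, the values without C1 female replicate 1 and the comparison with counterparts at other offsets were added after seeing the data. Figures were drawn with Python.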

Additional observations from a re-analysis of the deposited data

Results flagged for a closer look

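Each gene was searched, within each sex and selection group of 4 arrays, for an array whose gap to its nearest neighbour took up most of the range. Of 234 such groups 11 (4.7%) were flagged, and chance flags about 1 in 20. Among general subunits, Prosbeta2 was high in C2 male replicate 1 (4593.2, the others 3735.8 to 3834.7), Rpn7 was low in L1 male replicate 1 (1491.9 against 1616.1 to 1619.5) and Rpt2 was high in H1 male replicate 2 (1462.2 against 1335.9 to 1339.3) and in L2 female replicate 1 (2071.3 against 1865.8 to 1875.4). Rpt3 was low in C2 male replicate 2 (1371.5 against 1498.5 to 1511.5) and in L1 female replicate 1 (2019.9 against 2587.2 to 2646.2), and Rpt5 was low in L2 female replicate 1 (2533.2 against 2663.4 to 2689.5). Among paralogs, Prosbeta4R1 was low in C2 male replicate 1 (391.5 against 491.4 to 504.1). Near the floor in females, Prosalpha4T1 was high in H1 female replicate 2 (29.4 against 1.7 to 3.2), Prosbeta2R2 in H2 female replicate 1 (33.6 against 2.1 to 5.4) and Prosbeta5R1 in C1 female replicate 1 (8.4 against 1.4 to 2.3).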

How the results depend on the processing

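The sex calls were stable in number over 46 alternatives. Of the general subunits, 22 to 26 were higher in females, and 0 were higher in males unless the T genes were counted with them (2). Of the paralogs, 10 to 12 were higher in males, or 13 with the T genes counted as paralogs. The count of 12 came with no filter, which lets Prosbeta4R2 in. The median sex difference of the paralogs depended on the offset, at 4.89 with a pseudocount of 1 and 2.54 with 64, and on scaling to a common median (3.31), which also moved that of the general subunits to -1.16. The number of members called by line was 0 except with the ordinary model on the Signal (1) and a threshold of 0.05 (2). The calls between selection groups were not stable. For H and L the count was 0 with no filter, line as a random block, the H1 and H2 male labels exchanged, a threshold of 0.001, both odd female arrays left out (chosen after seeing the data), or without line C1, C2 or H1, 2 with a common median or without line L2, and 4 with the ordinary model. For H and C it was 1 with quantile normalization within each sex or over all arrays (the latter added after seeing the data), 2 without line C1 or H2, and 6 with the ordinary model. For L and C it was 0 with no filter, a filter at 100, a pseudocount of 1, a common median, line as a random block, the labels exchanged, the threshold of 0.001, both female arrays out, or without line C2, H1 or H2, and 2 with either quantile normalization or without line L2. Leaving out single arrays gave 0 to 2 (H and L), 0 to 1 (H and C) and 0 to 2 (L and C). Causes were not tested. With a block for replicate number, H and C had 1 call (Prosalpha5) and the other calls stayed. Replicate numbers were not treated as a pairing. Over 66 pairs of line and sex combinations, the differences between replicates correlated with a median of 0.05 (-0.25 to 0.21). Of these pairs, 16 were above 0.1. Correlations over all probe sets cannot show whether some genes, such as the paralogs in males, share a difference between replicates. With lines as replicates the count was 0 in all 9 alternatives. Signals near the floor limit every female value of the paralogs.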
